A study of Mus musculus with 35 samples.

Results

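The ephrin, Slit and netrin systems guide growing axons, migrating neurons and sprouting blood vessels, and they were described here through 38 genes fixed by name: 14 ligands (5 ephrin-A, 3 ephrin-B, 3 Slit, 2 netrin genes and *Draxin*) and 24 receptors (9 EphA, 5 EphB, 4 Robo, 2 DCC family and 4 UNC5 genes). All 38 were found among the 53465 genes of the bulk table, and 37 in the single-cell tables, where *Epha6* was not listed. The question was which population of the developing brain makes each ligand and each receptor. The material was whole mouse brain at E14.5 (days of embryonic development), dissociated and sorted with antibodies into neural cells, mural cells (the pericytes and smooth muscle cells that wrap vessels), endothelial cells and microglia, from 3 wild-type brains whose libraries carry names such as N-343 (neural), Mu-343 (mural), Ec-343 (endothelial) and Mi-343 (microglia), 3 per population, which made 12 bulk RNA libraries. A second set was 994 sorted wells of wild-type brains on 3 plates, processed with a single-cell protocol (mCEL-Seq2) in 11 libraries; cells of a *Mof* knockout were not used. Wells of the neural gate were negative for every marker stained, mural wells were high for PDGFRβ and low for PECAM1, endothelial wells high for PECAM1 and CD102, and microglia wells, as the deposited gate annotation writes it, positive for CD41 with medium CD45, where the study's text names CD11b with medium CD45 for microglia. No strain or sex is given in the labels, and the neural population is a gate of negatives that pools progenitors and neurons of all brain regions. RNA of the neural bulk libraries was extracted and made into libraries with other kits (Qiagen mini, TruSeq) than that of the other 3 populations (miRNeasy Micro, SMART-Seq v4 with Nextera XT), so in bulk a difference between neural cells and the rest and a difference between kits cannot be told apart; the single cells shared 1 chemistry.

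Ephrins are membrane-bound ligands: the A class is held by a lipid anchor and mainly binds EphA receptor tyrosine kinases, the B class crosses the membrane and mainly binds EphB kinases, and signals run both into the receptor cell and back into the ephrin cell. Slits are large secreted proteins that repel cells carrying Robo1 or Robo2. Netrin-1 attracts through DCC and neogenin and repels through the UNC5 receptors, and several members (ephrin-B2, EphB4, Robo4, UNC5B) also act in blood vessels, where ephrin-B2 marks arteries and EphB4 veins.

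Bulk libraries held 17638358 to 98414914 reads on genes, recovered from the deposited values. The labelled populations carried their own markers: all 6 of the mural, endothelial and microglia lists and 5 of the 6 neural markers were highest in the population named. Genes of neurons were also read outside the neural libraries. Summed over 10 neuron markers, per exon length, the level was 3.50 to 5.90% of the neural mean in mural libraries, 2.02 to 3.33% in endothelial libraries and 2.23 to 3.79% in microglia libraries. Other lists gave higher shares. The 6 neural markers were at 5.46 to 7.46% (mural), 6.68 to 7.90% (endothelial) and 4.23 to 5.31% (microglia), and 8 progenitor markers, among them *Vim* and *Nes*, at 153 to 216%, 52.2 to 61.1% and 19.6 to 19.9%. Mural libraries held 5 fibroblast markers at a summed 12.3 to 17.9 RPKM (reads per kilobase of exon, scaled to library size), and endothelial libraries 5 globin genes at 583 to 1436 RPKM, with 467 to 589 RPKM in neural libraries. Border macrophage markers summed to 71.3 to 89.2 RPKM in microglia. In bulk samples, fewer cells of a type and less RNA per cell cannot be told apart.

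Most guidance genes were neural. With limma on log2(normalized count + 1), a population was taken to lead a gene where the gene was higher there than in each of the other 3 at an adjusted p under 0.05, and 25 of the 38 genes were led by neural cells, against 17.0% of all 19765 genes tested. Endothelial cells led 4 genes, *Efna1*, *Epha2*, *Ephb4* and *Robo4* (background 4.13%), mural cells led 0 (0 also at an unadjusted p under 0.05 and with edgeR or DESeq2 on the recovered reads; background 4.18%) and microglia led 0 (0 at an unadjusted p under 0.05 and with edgeR, 1 with DESeq2; background 8.21%). No population led the other 9, *Efna2*, *Efna4*, *Efna5*, *Epha1*, *Epha5*, *Epha7*, *Slit2*, *Ntn1* and *Unc5b* (background 66.5%). Among ligands, 8 of 14 were led by neural cells and 1 by endothelial cells, and among receptors 17 of 24 and 3. The median difference over the 38 genes was 5.15 for neural minus mural cells, 5.21 for neural minus endothelial cells and 6.33 for neural minus microglia on the log2 scale, beside 0.13, 0.17 and 0.08 over all genes tested. Of the 25 genes led by neural cells, 20 had a mural level at or below the highest share that the neuron markers reached in mural libraries; this held for 14 in endothelial cells and 23 in microglia. With the highest share of the 6 neural markers in its place these counts were 22, 20 and 24. What part neural RNA had in those low levels was not tested.

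Taken population by population with limma, 26 (background 28.7%) of the 38 genes were higher in neural than in mural cells, 30 (background 30.6%) higher than in endothelial cells and 33 (background 30.4%) higher than in microglia. The reverse held for 3 (background 25.8%), 6 (background 27.1%) and 2 (background 29.3%) genes. Mural, endothelial and microglia libraries shared their kits, and a ranking among these 3 populations was added after the data were seen. It used the contrasts of the same fit, so the neural libraries still entered its SE and adjusted p. Endothelial cells led 7 genes there, *Efna1*, *Efnb2*, *Efnb3*, *Epha2*, *Ephb4*, *Robo4* and *Neo1* (background 6.16%), or 6 with brain as a block, which lost *Neo1*. Mural cells led 4, *Efna5*, *Epha5*, *Ntn1* and *Dcc* (background 7.37%). Microglia led 0 (background 10.9%), 0 also with edgeR and 2 with DESeq2 on the recovered reads, and 27 genes had no leader (background 75.6%).

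**Figure D1:**
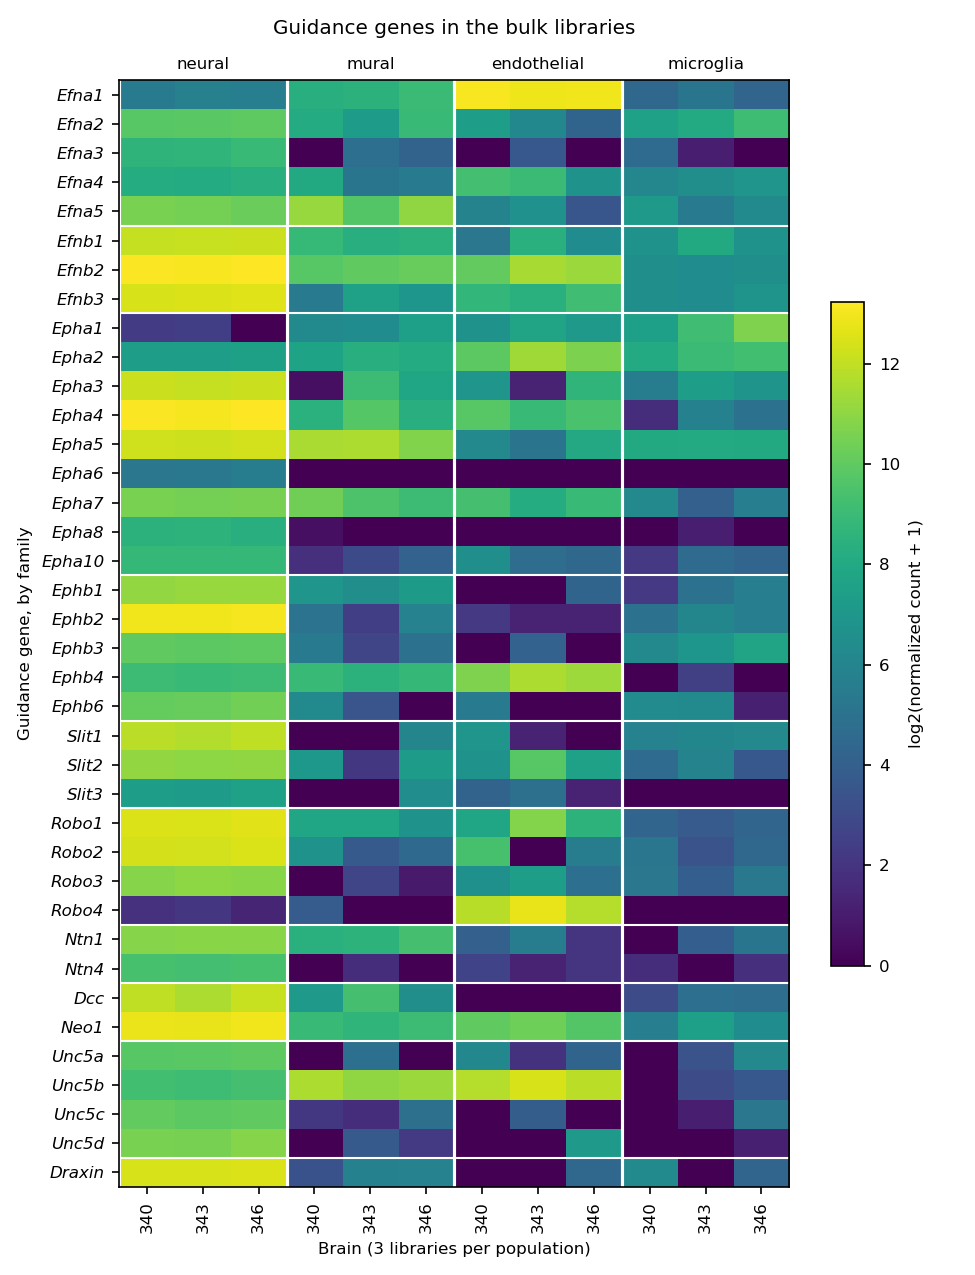
Level of each of the 38 guidance genes (rows, by family) in the 12 bulk libraries (columns, 3 brains per population), as log2(normalized count + 1) by color. The neural block was bright for most rows, with *Efna1* and *Robo4* brightest in the endothelial block and *Unc5b* bright in both vascular blocks.

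Values below are normalized counts, that is, the deposited read counts divided by a size factor per library, and are given in the order of the brains, those of N-340, N-343 and N-346. Among the ephrin-A ligands, *Efna1* stood apart. *Efna1* was at 8819, 7515 and 7957 normalized counts in endothelial libraries, at 312, 361 and 515 in mural, at 44.1, 52.6 and 49.4 in neural and at 21.4, 34.4 and 18.9 in microglia libraries. Every endothelial library was more than 10 times above every library of the other populations, and the lead over mural cells was 4.38 ± 0.32 (SE) on the log2 scale, largest adjusted p = 3.6e-06. Per exon length, *Efna1* was the most abundant of the 14 ligands in endothelial cells, at 144 ± 9.17 RPKM (SD, n = 3), beside 7.95 ± 2.48 RPKM (SD, n = 3) in mural cells. *Efna5*, which repels axons in topographic maps, was shared by mural and neural cells. Normalized counts of *Efna5* were 1537, 1398 and 1195 (neural), 2372, 816 and 2089.8 (mural), 60.2, 104 and 10.6 (endothelial) and 144, 43.9 and 80.6 (microglia). Mural and neural libraries overlapped, and the difference of 0.22 ± 0.76 (SE), adjusted p = 0.84, did not pass the test and turned to the neural side without the mural library Mu-340 (-0.07). Within the 3 populations made with the same kits, *Efna5* was led by mural cells (4.30 ± 0.76 (SE), adjusted p = 0.0010 against microglia).

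The other ephrin-A genes had lower normalized counts than *Efna5* in neural libraries; per exon length *Efna2* (17.1 ± 0.8 RPKM (SD, n = 3)) was above *Efna5* (13.5 ± 1.89 RPKM (SD, n = 3)) there. For *Efna2*, neural libraries gave 876, 919 and 990.2 normalized counts, mural libraries 281, 159 and 475, endothelial libraries 168, 72.4 and 18.1 and microglia libraries 187, 270.4 and 558. Neural libraries were highest and did not overlap the rest, but the difference to microglia was 1.60 ± 0.73 (SE), adjusted p = 0.078, and the gene passed the test against all 3 populations only without endothelial library Ec-340 (largest adjusted p = 0.038) or Ec-346 (0.022). *Efna3* stood at 389.9, 396 and 485 normalized counts in neural libraries, with 0, 27.4 and 17.9 in mural, 0, 11.4 and 0 in endothelial and 23.8, 1.19 and 0 in microglia libraries. Its neural libraries were far above the others, which reached at most 27.4 (5.70 ± 1.54 (SE) on the log2 scale, largest adjusted p = 0.0090), although edgeR on the recovered reads gave 0.054. *Efna4* was at 287, 279.6 and 313 normalized counts in neural libraries, at 259, 34.2 and 44.1 in mural, at 620.2, 519.5 and 109 in endothelial and at 68.9, 91.3 and 117 in microglia libraries. Endothelial values spread across the neural ones, the difference of endothelial minus neural cells was 0.16 ± 0.80 (SE), adjusted p = 0.89, and its sign turned without endothelial library Ec-340 (-0.30) or Ec-343 (-0.17). *Efna3* and *Efna4* lie beside *Efna1* on chromosome 3, each overlapped on the opposite strand by a noncoding gene, over 344 and 168 exon bases, and reads of overlapping genes cannot be told apart where strand was not counted.

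All 3 ephrin-B ligands were led by neural cells. Their summed level was 176 ± 4.63 RPKM (SD, n = 3) in neural cells, against 10.8 ± 0.991 (mural), 16.1 ± 5.75 (endothelial) and 2.78 ± 0.718 (microglia), whereas the ephrin-A sum was highest in endothelial cells (154 ± 14.1 RPKM against 45.7 ± 0.183 in neural cells), through *Efna1*. Normalized counts of *Efnb1* were 4305, 4447 and 4680.4 (neural), 467, 323 and 368 (mural), 37.2, 338 and 86.0 (endothelial) and 112, 261 and 106 (microglia). Neural libraries did not overlap any other (3.55 ± 0.65 (SE) on the log2 scale, largest adjusted p = 0.00089). For *Efnb2*, neural libraries gave 9145, 8924 and 9605 normalized counts, mural libraries 873, 1016 and 1134, endothelial libraries 1076, 2855 and 2404 and microglia libraries 96.3, 84.2 and 96.9. This ligand is required in arteries. Its second level was in endothelial cells, and the neural lead was 2.24 ± 0.31 (SE) on the log2 scale, largest adjusted p = 0.00010; within the populations of the same kits endothelial cells led it (0.96 ± 0.31 over mural cells, largest adjusted p = 0.038), a call lost without any of 8 of the 12 libraries (0.055 to 0.12). *Efnb3* stood at 5503, 5889 and 6082 normalized counts in neural libraries, with 40.6, 192 and 123 in mural, 431, 341 and 582 in endothelial and 93.9, 86.6 and 113 in microglia libraries. The neural lead was 3.72 ± 0.47 (SE) on the log2 scale, largest adjusted p = 6.3e-05, and endothelial cells again came next. Per exon length *Efnb3*, *Efnb2* and *Efnb1* were the 3 highest ligands of neural cells, at 72.0 ± 3.06 RPKM (SD, n = 3), 53.0 ± 0.887 RPKM (SD, n = 3) and 51.0 ± 1.44 RPKM (SD, n = 3); *Efnb2* and *Efnb1* were close to each other.

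EphA receptors were mostly highest in neural cells, with *Epha2* and *Epha1* as the exceptions. *Epha2* was at 955, 2593 and 1566 normalized counts in endothelial libraries, at 272, 524 and 590.5 in microglia, at 206, 318 and 285 in mural and at 164, 169 and 184 in neural libraries. Endothelial libraries did not overlap the rest, and the lead over microglia was 1.84 ± 0.40 (SE) on the log2 scale, largest adjusted p = 0.0045; EphA2 is a known receptor of ephrin-A1. Normalized counts of *Epha1* were 177, 574 and 1645 (microglia), 108, 212 and 140.3 (endothelial), 79.1, 84.5 and 177 (mural) and 4.01, 4.43 and 0 (neural). The 3 microglia libraries spread widely between brains and overlapped the endothelial ones, so the difference to endothelial cells, 1.90 ± 0.89 (SE), adjusted p = 0.13, did not pass; without microglia library Mi-340 the largest adjusted p was 0.041, and DESeq2 on the recovered reads gave 0.036. *Epha1* shares 236 exon bases with *Zyx* on the opposite strand, which stood at 4703, 4715 and 3998 normalized counts in the same microglia libraries and at 2377, 2586 and 2847 in neural libraries, where *Epha1* was near 0, and its part in the *Epha1* values was not tested. Among all single microglia only 1 transcript of *Epha1* was counted.

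*Epha4*, a receptor of both ephrin classes that acts in axon tracts, was the most abundant EphA gene of neural cells per exon length (44.4 ± 1.59 RPKM (SD, n = 3)). For *Epha4*, neural libraries gave 9033, 8612 and 9629.9 normalized counts, mural libraries 346.1, 857 and 325, endothelial libraries 888, 481 and 685 and microglia libraries 2.38, 55.7 and 30.2. The neural lead was 3.77 ± 0.84 (SE) on the log2 scale, largest adjusted p = 0.0028. *Epha3* stood at 4629, 4224 and 4684 normalized counts in neural libraries, with 0.44, 533 and 221 in mural, 119, 1.42 and 403 in endothelial and 47.5, 162 and 116 in microglia libraries. Neural libraries were all above the rest, but the other groups scattered from near 0 to far higher values, and the lead of 5.53 ± 2.16 (SE) on the log2 scale, largest adjusted p = 0.046, was lost with brain as a replicate block (0.052), with edgeR on the recovered reads (0.0501) and when any of 10 of the 12 libraries was left out (0.052 to 0.12), all but mural library Mu-343 and endothelial library Ec-346. *Epha5* was at 5034, 4821 and 5232 normalized counts in neural libraries, at 3018, 3143 and 1717 in mural, at 74.4, 32.6 and 250.4 in endothelial and at 259, 270.4 and 263 in microglia libraries. *Epha5* was high in mural as well as neural cells: these groups did not overlap but differed by 0.99 ± 0.56 (SE), adjusted p = 0.16, and both were above endothelial cells and microglia. Without endothelial library Ec-346 the largest adjusted p was 0.024, and within the 3 populations of the same kits mural cells led *Epha5* (3.26 ± 0.56, largest adjusted p = 0.00089). Normalized counts of *Epha7* were 1525, 1414 and 1448 (neural), 1295, 744 and 538 (mural), 639.7, 289.6 and 489 (endothelial) and 73.7, 15.4 and 49.1 (microglia). Neural values were above all others, yet the difference to mural cells was 0.86 ± 0.54 (SE), adjusted p = 0.20.

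The remaining EphA genes were highest in neural libraries, and *Epha6* and *Epha8* were read almost only there. For *Epha6*, neural libraries gave 37.4, 38.2 and 47.3 normalized counts, mural libraries 0, 0 and 0, endothelial libraries 0, 0 and 0 and microglia libraries 0, 0 and 0. Against a floor of 3 reads over each group of libraries, the neural mean of *Epha6* was at least 57.8-fold higher than in mural cells, 26.4-fold than in endothelial cells and 33.8-fold than in microglia. DESeq2 on the recovered reads did not call it (0.13). *Epha8* stood at 365, 373 and 316 normalized counts in neural libraries, with 0.44, 0 and 0 in mural, 0, 0 and 0 in endothelial and 0, 1.19 and 0 in microglia libraries. Its neural mean was at least 226-fold higher than in endothelial cells. *Epha10* was at 449, 441 and 442 normalized counts in neural libraries, at 2.62, 6.85 and 16.9 in mural, at 93.9, 25.6 and 21.1 in endothelial and at 3.57, 23.7 and 18.9 in microglia libraries. This receptor, which lacks kinase activity, was at 2.43 ± 0.0577 RPKM (SD, n = 3) in neural cells, with a lead of 3.54 ± 0.87 (SE) on the log2 scale, largest adjusted p = 0.0050.

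EphB receptors divided into *Ephb4*, led by endothelial cells, and the other 4, led by neural cells. Normalized counts of *Ephb4* were 1619.5, 3141 and 2495 (endothelial), 531, 497 and 545 (neural), 500.3, 358 and 443 (mural) and 0, 4.74 and 0 (microglia). Endothelial libraries were the highest, neural and mural libraries overlapped, and microglia held almost no reads; the lead over neural cells was 2.15 ± 0.62 (SE) on the log2 scale, largest adjusted p = 0.013. For *Ephb1*, neural libraries gave 2178, 2332 and 2361 normalized counts, mural libraries 118, 92.5 and 149, endothelial libraries 0, 0 and 18.1 and microglia libraries 3.57, 30.8 and 50.4. *Ephb2* stood at 7846, 7774 and 8403 normalized counts in neural libraries, with 31.5, 4.57 and 58.2 in mural, 3.54, 1.42 and 1.51 in endothelial and 29.7, 65.2 and 50.4 in microglia libraries. *Ephb2* had the clearest neural lead of the EphB group, 7.41 ± 0.79 (SE) on the log2 scale, largest adjusted p = 1.3e-05, and that of *Ephb1* was 4.27 ± 1.16 (SE) on the log2 scale, largest adjusted p = 0.0095. *Ephb3* was at 1008, 943 and 1005 normalized counts in neural libraries, at 43.7, 5.71 and 30.1 in mural, at 0, 17.0 and 0 in endothelial and at 73.7, 125 and 213 in microglia libraries. The second level of *Ephb3* was in microglia; its lead of 2.97 ± 1.11 (SE) on the log2 scale, largest adjusted p = 0.039, was lost with the replicate block (0.062) and without any single microglia or neural library (0.0502 to 0.11). Normalized counts of *Ephb6* were 1114, 1155 and 1357 (neural), 80.4, 10.3 and 0 (mural), 42.5, 0 and 0 (endothelial) and 83.2, 80.6 and 1.26 (microglia). *Ephb6*, which lacks kinase activity, had a lead of 5.59 ± 1.95 (SE) on the log2 scale, largest adjusted p = 0.029, lost with edgeR on the recovered reads (0.066), without microglia library Mi-346 (0.12) and without neural library N-340 (0.066), N-343 (0.066) or N-346 (0.072).

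Slit ligands were highest in neural cells. For *Slit1*, neural libraries gave 3686, 3355 and 3985 normalized counts, mural libraries 0, 0 and 64.8, endothelial libraries 119, 1.42 and 0 and microglia libraries 57.1, 66.4 and 74.3. Neural cells led *Slit1* by 5.78 ± 1.84 (SE) on the log2 scale, largest adjusted p = 0.019, although the call was lost without neural library N-346 (0.051). *Slit2* stood at 2189, 2011 and 2127 normalized counts in neural libraries, with 130.2, 3.42 and 156 in mural, 105, 883 and 190.0 in endothelial and 23.8, 59.3 and 11.3 in microglia libraries. Endothelial library Ec-343 stood above the other endothelial libraries, and the difference of neural minus endothelial cells was 3.01 ± 1.27 (SE), adjusted p = 0.062. Against mural cells it was 5.55 ± 1.27 (SE), adjusted p = 0.0034; without endothelial library Ec-343 the largest adjusted p was 0.032, without mural library Mu-343 0.0075, with a pseudocount of 5 0.035 and with DESeq2 on the recovered reads 0.028. *Slit3* was at 164, 157 and 189 normalized counts in neural libraries, at 0, 0 and 89.2 in mural, at 17.7, 28.4 and 1.51 in endothelial and at 0, 0 and 0 in microglia libraries. The lead of *Slit3*, 3.94 ± 1.55 (SE) on the log2 scale, largest adjusted p = 0.049, was lost with the replicate block (0.071), with edgeR on the recovered reads (0.31) and without any of 10 libraries (0.059 to 0.17), all but mural library Mu-346 and endothelial library Ec-343. The leads of *Epha3*, *Ephb3* and *Slit3* were each lost as well with a pseudocount of 0.5, with quantile normalization and with no minimum level (0.0502 to 0.075). Per exon length the order in neural cells was *Slit1* (24.4 ± 1.61 RPKM (SD, n = 3)), *Slit2* (3.26 ± 0.129 RPKM (SD, n = 3)) and *Slit3* (1.10 ± 0.0858 RPKM (SD, n = 3)), and these values did not overlap. The lengths join all annotated exons of a gene, 5921 bases for *Slit1*, 25433 for *Slit2* and 6067 for *Slit3*, so the distances between these levels depend on the annotation.

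Robo receptors split in the same way as the EphB genes: *Robo1*, *Robo2* and *Robo3* were led by neural cells and *Robo4* by endothelial cells. Normalized counts of *Robo1* were 5939, 5741 and 6288 (neural), 231, 226 and 109.9 (mural), 218, 1745 and 380.1 (endothelial) and 19.0, 13.0 and 18.9 (microglia). Endothelial cells were second, through endothelial library Ec-343 above all, and the neural lead was 3.51 ± 0.63 (SE) on the log2 scale, largest adjusted p = 0.00074. For *Robo2*, neural libraries gave 5274, 5082 and 5665 normalized counts, mural libraries 104, 12.6 and 21.6, endothelial libraries 661, 0 and 46.8 and microglia libraries 35.7, 9.49 and 21.4. Endothelial library Ec-340 was high and Ec-343 at 0, and neural cells led by 7.39 ± 1.81 (SE) on the log2 scale, largest adjusted p = 0.0052. *Robo3* stood at 1809, 2026 and 1873 normalized counts in neural libraries, with 0, 5.71 and 0.94 in mural, 99.2, 162 and 27.1 in endothelial and 36.9, 14.2 and 37.8 in microglia libraries. *Robo3*, known from commissural axons, was led by 4.62 ± 0.84 (SE) on the log2 scale, largest adjusted p = 0.00076. *Robo4* was at 3597, 7115 and 3482 normalized counts in endothelial libraries, at 2.67, 3.32 and 1.59 in neural, at 13.6, 0 and 0 in mural and at 0, 0 and 0 in microglia libraries. *Robo4* was nearly absent outside endothelial cells, its lead over neural cells was 10.34 ± 0.95 (SE) on the log2 scale, largest adjusted p = 1.4e-05, and the endothelial mean was at least 3909-fold higher than in microglia, where no read was counted. It was the highest of the 24 receptors in endothelial cells per exon length, at 29.2 ± 13.5 RPKM (SD, n = 3).

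*Ntn1*, the founding netrin of the floor plate, was highest in neural cells, with a second level in mural cells. Normalized counts of *Ntn1* were 1824, 1858 and 1907 (neural), 341, 369 and 644 (mural), 15.9, 48.3 and 3.02 (endothelial) and 0, 14.2 and 34.0 (microglia). Neural libraries did not overlap mural ones, but the difference of neural minus mural cells was 2.10 ± 1.21 (SE), adjusted p = 0.17, and the gene passed the test for neural cells without microglia library Mi-340 (largest adjusted p = 0.048), with a pseudocount of 5 (0.042) and with DESeq2 on the recovered reads (0.048), and was neural against the mean of the log2 levels of the other 3 populations at over 10-fold. The SE also carried the spread of the endothelial (3.02 to 48.3) and microglia libraries (0 to 34.0), not only that of neural and mural libraries. Within the 3 populations of the same kits mural cells led *Ntn1* (4.86 ± 1.21, largest adjusted p = 0.012). For *Ntn4*, neural libraries gave 669, 613 and 668 normalized counts, mural libraries 0, 2.28 and 0, endothelial libraries 5.32, 1.42 and 3.02 and microglia libraries 2.38, 0 and 2.52. *Ntn4*, a netrin found in basement membranes, was neural in this material (7.37 ± 0.73 (SE) on the log2 scale, largest adjusted p = 9.7e-06). *Draxin* stood at 5471, 5537 and 5956 normalized counts in neural libraries, with 9.18, 54.8 and 58.2 in mural, 0, 0 and 21.1 in endothelial and 79.6, 0 and 18.9 in microglia libraries. *Draxin*, a secreted repellent that binds DCC, was the fourth ligand of neural cells per exon length (42.8 ± 1.19 RPKM (SD, n = 3)), with a lead of 7.45 ± 1.60 (SE) on the log2 scale, largest adjusted p = 0.0024.

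Netrin receptors of the DCC family were neural. *Dcc* was at 4069, 3117 and 4530.3 normalized counts in neural libraries, at 137, 645 and 92.0 in mural, at 0, 0 and 0 in endothelial and at 7.13, 27.3 and 25.2 in microglia libraries. The neural mean of *Dcc* was at least 2515-fold higher than in endothelial cells, where no read was counted, and the difference to mural cells was 4.25 ± 0.76 (SE), adjusted p = 0.00070. Mural cells led *Dcc* among the 3 populations of the same kits (3.48 ± 0.76 over microglia, largest adjusted p = 0.0039), at a mean of 7.46% of the neural level, beside the neuron marker share of 3.50 to 5.90% in mural libraries. That mean rested on mural library Mu-343, at 16.5% of the neural level, and was 2.93% without it. Normalized counts of *Neo1* were 7395, 7055 and 7897 (neural), 476, 398 and 533 (mural), 1021, 1279 and 828 (endothelial) and 48.7, 179 and 84.3 (microglia). *Neo1*, encoding neogenin, a receptor of netrins and of RGM proteins, was led by neural cells (2.86 ± 0.39 (SE) on the log2 scale, largest adjusted p = 9.8e-05) and, within the populations of the same kits, by endothelial cells (1.14 ± 0.39 over mural cells, largest adjusted p = 0.049). The second call was lost with the replicate block (0.061), with edgeR on the recovered reads (0.052) and without any of 10 of the 12 libraries (0.053 to 0.13).

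The UNC5 genes differed from each other. For *Unc5b*, endothelial libraries gave 3492, 5508 and 3755 normalized counts, mural libraries 3077, 2114 and 2465, neural libraries 609, 563 and 649 and microglia libraries 0, 7.12 and 11.3. *Unc5b*, a netrin receptor known from endothelial tip cells and a binding partner of Robo4, was high in both vascular populations. Every endothelial library was above every mural library, but the difference of 0.72 ± 0.73 (SE), adjusted p = 0.50, did not pass. That SE also carried the spread of the microglia libraries near 0. DESeq2 on the recovered reads called *Unc5b* for endothelial cells (0.033). Mural cells were above neural cells by 2.06 ± 0.73 (SE), adjusted p = 0.034, and endothelial cells by 2.78 ± 0.73 (SE), adjusted p = 0.0073. *Unc5a* stood at 889, 926 and 993 normalized counts in neural libraries, with 0, 27.4 and 0 in mural, 70.9, 2.84 and 18.1 in endothelial and 0, 9.49 and 74.3 in microglia libraries. Neural cells led *Unc5a* by 5.75 ± 1.72 (SE) on the log2 scale, largest adjusted p = 0.014, a call lost without endothelial library Ec-343 (0.055) and with edgeR on the recovered reads (0.053). *Unc5c* was at 1055, 954 and 1009 normalized counts in neural libraries, at 3.50, 2.28 and 28.2 in mural, at 0, 14.2 and 0 in endothelial and at 0, 1.19 and 36.5 in microglia libraries. Normalized counts of *Unc5d* were 1508, 1449.8 and 1802 (neural), 0, 12.6 and 3.76 (mural), 0, 0 and 142 (endothelial) and 0, 0 and 1.26 (microglia). *Unc5c* and *Unc5d* were led by neural cells by 7.06 ± 1.47 (SE) and 8.24 ± 1.69 on the log2 scale, with largest adjusted p = 0.0020 and 0.0017, and the other populations held them near 0 apart from single libraries.

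**Figure D2:**
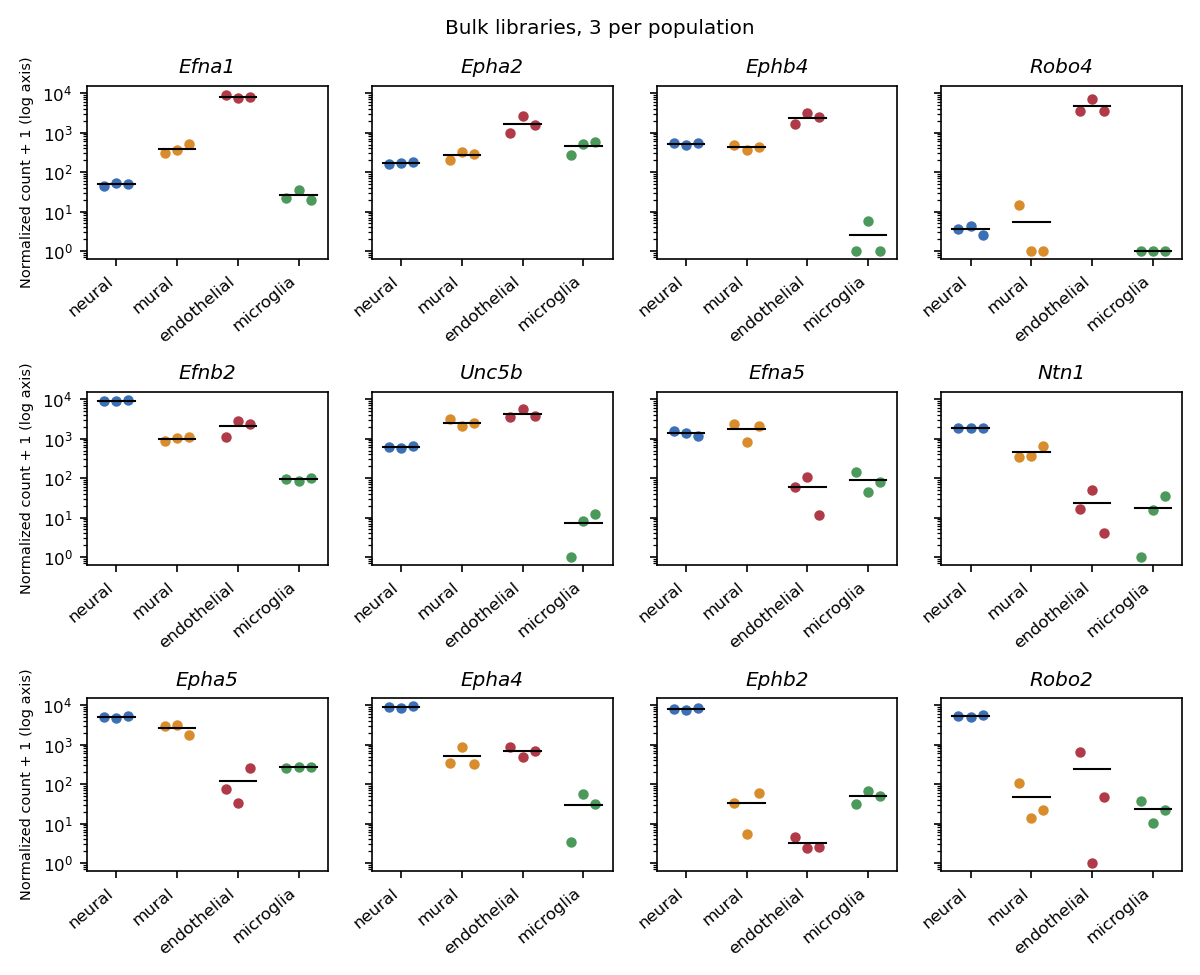
Normalized count + 1 (log axis) of 12 guidance genes in the 12 bulk libraries: points are single libraries, bars the mean of 3. *Efna1*, *Epha2*, *Ephb4* and *Robo4* were highest in the endothelial libraries, *Unc5b* in both vascular populations, and *Efna5* and *Epha5* were high in neural and mural cells.

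The genes led by endothelial cells, and *Unc5b*, which was high in both vascular populations, lie at scattered positions of the genome (GRCm38, GENCODE vM21): *Efna1* at chr3:89271733-89281142, minus strand, *Epha2* at chr4:141301240-141329384, plus strand, *Ephb4* at chr5:137350109-137378669, plus strand, *Robo4* at chr9:37401897-37415115, plus strand and *Unc5b* at chr10:60762593-60831581, minus strand. *Robo3*, which was neural, lies beside *Robo4* at chr9:37415669-37433246, minus strand. Their upstream sequences are shown because these 5 genes share vascular expression, and transcription factors of the ETS family, which bind a GGAA core, act widely in endothelial genes. The sequences come from RefSeq (GRCm38.p6), run 5′ to 3′ on the strand of the gene through the 250 bases before the RefSeq start, leave out any base inside the GENCODE gene (which shortened *Efna1* and *Robo4*), and carry the core on either strand (GGAA or its reverse complement TTCC) in capitals. The intervals are chr3:89281143-89281201 for *Efna1*, chr4:141300971-141301220 for *Epha2*, chr5:137349859-137350108 for *Ephb4*, chr9:37401722-37401896 for *Robo4* and chr10:60831582-60831831 for *Unc5b*.
Efna1: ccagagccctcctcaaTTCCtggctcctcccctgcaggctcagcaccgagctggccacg
Epha2: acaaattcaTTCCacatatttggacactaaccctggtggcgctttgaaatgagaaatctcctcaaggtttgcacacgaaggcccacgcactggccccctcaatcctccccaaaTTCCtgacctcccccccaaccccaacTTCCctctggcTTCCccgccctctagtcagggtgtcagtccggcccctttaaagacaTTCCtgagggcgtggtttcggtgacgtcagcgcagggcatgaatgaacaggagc
Ephb4: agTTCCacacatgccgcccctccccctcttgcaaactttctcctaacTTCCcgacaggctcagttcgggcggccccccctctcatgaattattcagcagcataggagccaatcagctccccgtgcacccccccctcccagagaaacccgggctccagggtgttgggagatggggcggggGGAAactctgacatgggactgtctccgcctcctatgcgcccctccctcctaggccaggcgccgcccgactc
Robo4: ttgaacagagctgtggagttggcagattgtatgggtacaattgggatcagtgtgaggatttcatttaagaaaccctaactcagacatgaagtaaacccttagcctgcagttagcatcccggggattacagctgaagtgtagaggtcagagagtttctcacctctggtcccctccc
Unc5b: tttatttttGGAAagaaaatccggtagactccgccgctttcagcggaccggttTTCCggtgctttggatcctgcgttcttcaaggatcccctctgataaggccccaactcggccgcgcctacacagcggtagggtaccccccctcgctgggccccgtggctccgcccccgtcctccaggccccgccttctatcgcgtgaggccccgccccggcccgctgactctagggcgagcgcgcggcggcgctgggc
The core occurred 1 time in the 59 bases of *Efna1*, 5 times in those of *Epha2*, 3 in *Ephb4*, 0 in the 175 bases of *Robo4* and 2 in *Unc5b*. In untrimmed windows of 250 bases before the start, which can reach into the annotated gene, *Robo4* and *Efna1* held it 3 times each. Over such windows, 27 of the 33 guidance genes with an entry and 93.4% of all 32851 entries held it, so a match is common. The longer core CCGGAA was found for *Unc5b*, *Ephb2* and *Ephb6*, beside 12% of all entries. *Robo4* had 2 CG dinucleotides in its window of 250 bases, *Efna1* 16, *Epha2* 9, *Ephb4* 12 and *Unc5b* 27, beside a median of 19 over the guidance genes and 6 over all entries.

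The single cells put the same question to libraries of 1 chemistry. Of the 994 wells, 686 held more than 1500 transcripts: 123 in the neural, 210 in the mural, 225 in the endothelial and 128 in the microglia gate, with medians of 7717, 6885, 6408 and 10761 transcripts per cell. No 2 cells held the same values, and levels are given as TPM, a gene's transcripts per 1000000 of the sum over a plate and gate, in the order of plates 1, 2 and 3. Shares of cells with a transcript carry exact (Clopper-Pearson) intervals that cover counting error only, and the gate with the lowest share stands for background. Plate 3 gave few of them (6 to 14 cells per gate), and its endothelial gate carried mural markers at 2907 TPM, beside 467 and 102 on plates 1 and 2. Transcripts were summed per plate and gate and tested with edgeR; the labels do not tie a plate to a brain, so p-values measure the spread between plates. Of the 38 genes, 24 had enough transcripts to be tested. Neural cells led 14 of these (background 10.5% of 9281 genes), endothelial cells 4 (background 5.10%), mural cells 1 (background 4.09%) and microglia 0 (0 at an unadjusted p under 0.05 and with DESeq2; background 11.4%), and 5 had no leading gate (background 68.9%). The bulk libraries and the single cells had the same highest population for 20 of the 24 genes; 15 had a leading population in both data sets and it was the same each time. Pair by pair with edgeR, 16 (background 18.0%) of the 24 genes were higher in the neural than in the mural gate, 17 (background 18.6%) than in the endothelial and 18 (background 23.6%) than in the microglia gate, against 4 (background 15.8%), 5 (background 18.8%) and 0 (background 21.6%) in the reverse direction.

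The 4 endothelial genes of the bulk libraries were also the 4 led by the endothelial gate with edgeR; DESeq2 kept *Efna1* and *Robo4*. *Efna1* was at 147, 102 and 85.5 TPM in the endothelial gate, at 6.33, 3.54 and 0 in the mural, at 4.43, 0 and 10.9 in the neural and at 1.48, 0 and 0 in the microglia gate. A transcript of *Efna1* was found in 102 of 225 cells (45.3%, 95% interval 38.7 to 52.1%) of the endothelial gate and in 1 of 128 cells (0.781%, 95% interval 0.0198 to 4.28%) of the microglia gate, the lowest. The lead over the mural gate was 4.81 ± 0.47 (SE) on the log2 scale, largest adjusted p = 5.5e-19. For *Robo4*, the endothelial gate gave 171, 173 and 71.2 TPM, the mural gate 1.58, 1.18 and 0, the neural gate 0, 0 and 0 and the microglia gate 0, 0 and 0. *Robo4* was found in 118 of 225 cells (52.4%, 95% interval 45.7 to 59.1%) of the endothelial gate, and in 0 of 123 neural cells, where a count of 0 still allows 3 cells (2.44%) with a transcript and sets no limit on cells that express the gene. Levels of *Epha2* were 85.5, 83.3 and 14.2 TPM (endothelial), 31.7, 22.4 and 27.5 (mural), 4.44, 3.11 and 19.7 (microglia) and 2.21, 2.37 and 0 (neural). *Epha2* led by 1.68 ± 0.37 (SE) on the log2 scale, largest adjusted p = 6e-05, a call lost with DESeq2 (0.29), and on plate 3 the mural gate was above the endothelial gate. *Ephb4* was at 47.9, 53.4 and 42.7 TPM in the endothelial gate, at 22.2, 23.6 and 41.2 in the mural, at 6.64, 2.37 and 0 in the neural and at 0, 1.55 and 0 in the microglia gate. *Ephb4* led by 1.17 ± 0.42 (SE) on the log2 scale, largest adjusted p = 0.029, a call lost without plate 1 (0.60) or plate 2 (0.70), with DESeq2 (0.54) and with no filter on low counts (0.078); plate 3 carried mural markers in its endothelial gate, whose part was not tested. In the single cells the mural gate, and not the neural gate, came second for *Ephb4* (23.9 against 4.14 TPM over all plates).

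Mural cells were placed higher by the single cells than by the bulk libraries for *Ntn1* and *Unc5b*. For *Ntn1*, the mural gate gave 41.2, 39.0 and 54.9 TPM, the neural gate 8.86, 14.2 and 32.8, the endothelial gate 0, 3.14 and 0 and the microglia gate 0, 0 and 0. *Ntn1* was found in 46 of 210 cells (21.9%, 95% interval 16.5 to 28.1%) of the mural gate and 7 of 123 cells (5.69%, 95% interval 2.32 to 11.4%) of the neural gate, with 0 of 128 microglia. The mural gate led by 1.54 ± 0.52 (SE) on the log2 scale, largest adjusted p = 0.012, which is the reverse of the order in bulk; the call was lost without plate 1 (0.33) or plate 2 (0.36) and with DESeq2 (0.33). Levels of *Unc5b* were 233, 262 and 288 TPM (mural), 195, 108 and 99.7 (endothelial), 6.64, 7.10 and 21.9 (neural) and 2.96, 3.11 and 0 (microglia). *Unc5b* was found in 134 of 210 cells (63.8%, 95% interval 56.9 to 70.3%) of the mural gate and 94 of 225 cells (41.8%, 95% interval 35.3 to 48.5%) of the endothelial gate, with 4 of 128 cells (3.12%, 95% interval 0.858 to 7.81%) in the microglia gate. Its mural level was above the endothelial level on each plate, by 0.63 ± 0.26 (SE) on the log2 scale, largest adjusted p = 0.067; with plate as a replicate block the largest adjusted p was 0.030, and without plate 3 0.023. *Efna5* was at 64.2, 82.8 and 32.8 TPM in the neural gate, at 44.3, 41.3 and 68.7 in the mural, at 5.21, 7.86 and 0 in the endothelial and at 0, 1.55 and 0 in the microglia gate. *Efna5* was close in the neural and mural gates (0.61 ± 0.38 (SE), adjusted p = 0.23) and low in the other gates, as in bulk. For *Efna2*, the neural gate gave 28.8, 9.47 and 32.8 TPM, the mural gate 23.7, 40.2 and 27.5, the endothelial gate 21.9, 20.4 and 28.5 and the microglia gate 4.44, 6.22 and 0. *Efna2* had its highest level in the mural gate and did not differ beyond the spread from the endothelial gate (0.43 ± 0.44 (SE) on the log2 scale, largest adjusted p = 0.59).

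Among the ephrin-B ligands the neural lead was smaller in the single cells. Levels of *Efnb2* were 109, 170.4 and 98.5 TPM (neural), 61.7, 59.1 and 13.7 (mural), 115, 78.6 and 57.0 (endothelial) and 7.40, 3.11 and 0 (microglia). *Efnb2* was found in 61 of 123 cells (49.6%, 95% interval 40.5 to 58.8%) of the neural gate and 77 of 225 cells (34.2%, 95% interval 28.0 to 40.8%) of the endothelial gate, with 6 of 128 cells (4.69%, 95% interval 1.74 to 9.92%) in the microglia gate. The neural and endothelial gates did not differ beyond the spread (0.38 ± 0.29 (SE) on the log2 scale, largest adjusted p = 0.33; -0.05 without plate 2). *Efnb3* was at 137, 116 and 87.6 TPM in the neural gate, at 47.5, 36.6 and 54.9 in the mural, at 50, 40.8 and 14.2 in the endothelial and at 1.48, 3.11 and 0 in the microglia gate. The neural gate led *Efnb3* by 1.34 ± 0.33 (SE) on the log2 scale, largest adjusted p = 0.00023, lost without plate 1 (0.21) or plate 2 (0.16). For *Efnb1*, the neural gate gave 70.9, 68.6 and 21.9 TPM, the mural gate 20.6, 14.2 and 0, the endothelial gate 2.08, 7.86 and 0 and the microglia gate 7.40, 6.22 and 0. *Efnb1* had a neural lead of 1.97 ± 0.45 (SE) on the log2 scale, largest adjusted p = 7.3e-05, lost with DESeq2 (0.081).

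Among the Eph receptors tested, *Epha3*, *Epha4*, *Ephb1* and *Ephb2* were led by neural cells in both data sets, *Epha5* and *Epha7* in the single cells and not in bulk, and *Ephb3* in bulk and not in the single cells; differences between the data sets were not tested. Levels of *Epha4* were 261, 357 and 76.6 TPM (neural), 58.6, 18.9 and 13.7 (mural), 36.5, 25.1 and 14.2 (endothelial) and 0, 0 and 19.7 (microglia). *Epha4* was the most abundant guidance gene of the neural gate by transcripts and led by 2.92 ± 0.32 (SE) on the log2 scale, largest adjusted p = 1.1e-18, lost with DESeq2 (0.066). *Epha5* was at 190.4, 317 and 120.4 TPM in the neural gate, at 47.5, 36.6 and 13.7 in the mural, at 12.5, 15.7 and 0 in the endothelial and at 16.3, 24.9 and 78.8 in the microglia gate. Here *Epha5* was led by the neural gate (2.55 ± 0.31 (SE) on the log2 scale, largest adjusted p = 9.9e-15), with a transcript in 21 of 128 cells (16.4%, 95% interval 10.5 to 24.0%) of the microglia gate, where it was the only guidance gene found in at least 10% of cells, and in 18 of 225 cells (8.0%, 95% interval 4.81 to 12.3%) of the endothelial gate, the lowest. Microglia were the most deeply read, and with cells thinned to 1500 transcripts these shares were 2.34% and 1.33%, beside 17.9% in the neural gate. For *Ephb2*, the neural gate gave 93, 73.4 and 21.9 TPM, the mural gate 4.75, 3.54 and 0, the endothelial gate 2.08, 0 and 0 and the microglia gate 4.44, 1.55 and 0. The neural lead of *Ephb2* was 4.17 ± 0.56 (SE) on the log2 scale, largest adjusted p = 3.4e-11. On the log2 scale, with SE, the other neural leads among Eph receptors were *Epha3* (3.15 ± 0.46), *Epha7* (1.53 ± 0.50) and *Ephb1* (1.81 ± 0.46), and that of *Epha7* was lost with DESeq2 (0.30) and with no filter on low counts (0.057). The lead of *Ephb1* was lost with DESeq2 (0.15) and without plate 1 (0.30), plate 2 (0.39) or plate 3 (0.089). *Ephb3* was highest in the neural gate at 23.8 TPM, with 7.30 in the microglia gate, and did not pass (1.32 ± 0.65 (SE) on the log2 scale, largest adjusted p = 0.086).

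Slit and Robo genes had the same highest population as in bulk. Levels of *Slit2* were 95.2, 18.9 and 32.8 TPM (neural), 14.2, 2.36 and 0 (mural), 17.7, 7.86 and 14.2 (endothelial) and 2.96, 0 and 0 (microglia). The neural gate led *Slit2* by 1.86 ± 0.47 (SE) on the log2 scale, largest adjusted p = 0.00032, lost with DESeq2 (0.17) and without plate 3 (0.10); plate 1 held most neural transcripts of the gene. *Robo1* was at 111, 135 and 87.6 TPM in the neural gate, at 9.50, 4.73 and 13.7 in the mural, at 26.1, 39.3 and 42.7 in the endothelial and at 0, 0 and 0 in the microglia gate. *Robo1* was second in the endothelial gate, where 36 of 225 cells (16%, 95% interval 11.5 to 21.5%) had a transcript against 39 of 123 cells (31.7%, 95% interval 23.6 to 40.7%) of the neural gate and 0 of 128 microglia. Its neural lead was 1.73 ± 0.35 (SE) on the log2 scale, largest adjusted p = 6.4e-06, lost without plate 1 (0.22) or plate 2 (0.092). For *Robo2*, the neural gate gave 77.5, 73.4 and 43.8 TPM, the mural gate 1.58, 3.54 and 0, the endothelial gate 1.04, 0 and 14.2 and the microglia gate 0, 0 and 0. *Robo2* was close to absent outside the neural gate (4.65 ± 0.60 (SE) on the log2 scale, largest adjusted p = 3.3e-13). Neural cells also led *Neo1* (0.90 ± 0.33 (SE) on the log2 scale, largest adjusted p = 0.022; lost without plate 1, 0.40, or plate 2, 0.58, with DESeq2, 0.28, and with no filter on low counts, 0.13), *Unc5c* (4.84 ± 0.77 (SE) on the log2 scale, largest adjusted p = 1.4e-08) and *Draxin* (3.54 ± 0.50 (SE) on the log2 scale, largest adjusted p = 3.3e-11). *Unc5c* was found in only 11 of 123 cells (8.94%, 95% interval 4.55 to 15.4%) of the neural gate, although its level there was 42.5 TPM.

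The other 13 listed genes had too few transcripts to be tested. *Dcc* had 33 transcripts in the neural gate, 6 in the mural gate and 0 in the endothelial and microglia gates. *Efna4* had 10, 14, 23 and 2 transcripts in the neural, mural, endothelial and microglia gates. *Unc5d* had 19, 5, 3 and 2. By TPM, 10 of the 13 were highest in the neural gate, *Efna3*, *Epha8*, *Ephb6*, *Slit1*, *Slit3*, *Robo3*, *Ntn4*, *Dcc*, *Unc5a* and *Unc5d*; *Efna4* and *Epha10* were highest in the endothelial gate and *Epha1* in the mural gate. They fell below the filter on low counts. With no filter, 4 of the 13 were led by the neural gate, *Dcc* (largest adjusted p = 0.00026), *Efna3* (0.018), *Unc5d* (0.026) and *Ntn4* (0.044, all with edgeR), and the other 9 had no leading gate. The share of all genes under that setting is not given, so the count of 4 is not set against a background.

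**Figure D3:**
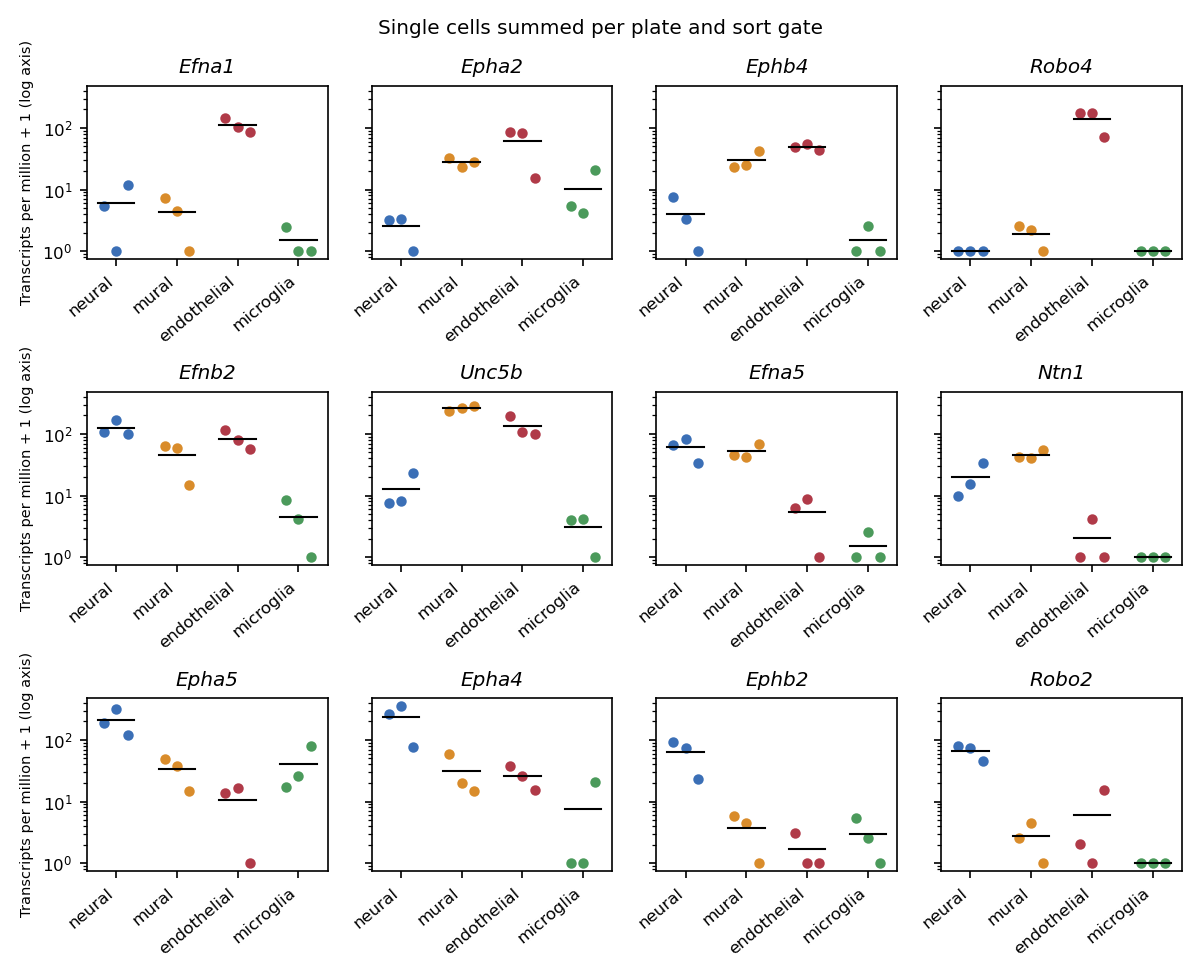
TPM + 1 (log axis) of 12 guidance genes in wild-type single cells summed per plate and sort gate: points are the 3 plates, bars their mean. *Ntn1* and *Unc5b* were highest in the mural gate on every plate, and *Efnb2* was close in the neural and endothelial gates.

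For the 18 genes that were highest in neural bulk libraries and tested in both data sets, the neural level minus the highest other level was smaller in the single cells than in bulk for 16; the exceptions were *Epha5* and *Epha7*. The bulk values carry the kit as well as the population, the sums of single cells carry few transcripts for many of these genes, and the part of either was not tested.

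**Figure D4:**
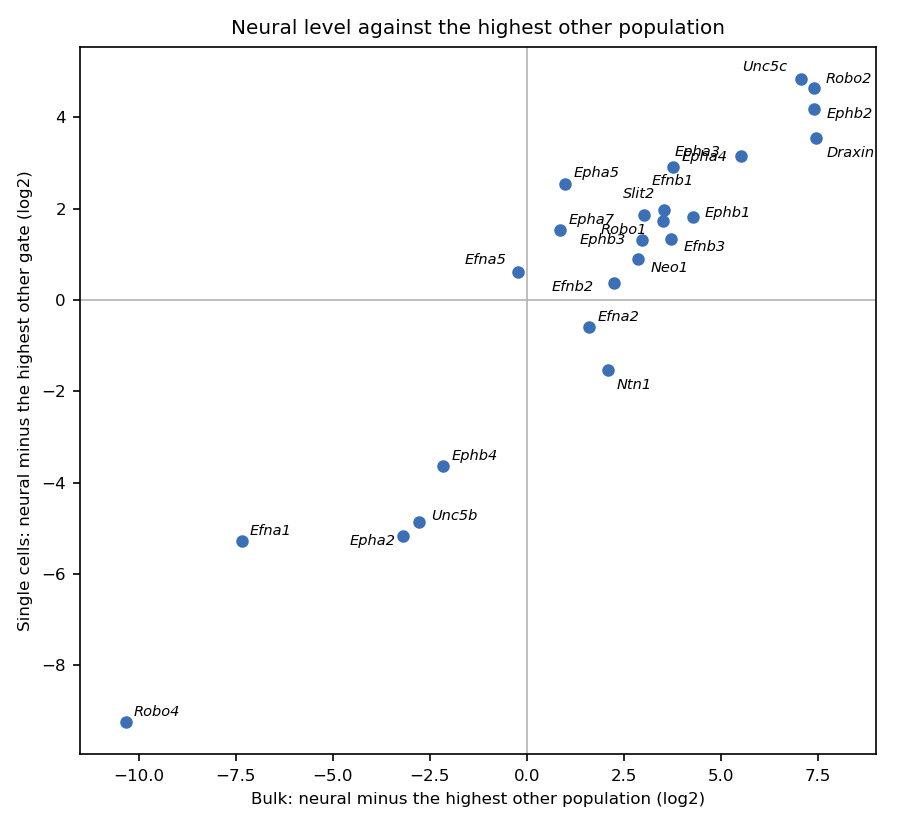
Difference in log2 between the neural level and the highest level among the other populations, in bulk (horizontal) and in the single cells (vertical), for the 24 guidance genes tested in both. *Ntn1* and *Efna2* lie above 0 in bulk and below 0 in the single cells; the vertical place of *Robo4* depends on the prior count of the fit, since the neural gate held none of its transcripts.

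The neural gate pools progenitors and neurons, and its 123 cells were split by whether 8 progenitor markers or 10 neuron markers had the higher mean log2 level, which gave 44 progenitor-like and 79 neuron-like cells; 9 of the 123 lay within 1 log2 unit of the cut, and the values are a description with no test. *Robo1*, *Robo2*, *Unc5c*, *Unc5d* and *Dcc* lay on the neuron side. *Robo2* was at 8.77 TPM in progenitor-like and 108 in neuron-like cells (17.1, 0 and 0 against 116, 101 and 102 on plates 1, 2 and 3). *Robo1* was at 43.8 TPM in progenitor-like and 161 in neuron-like cells (34.3, 78.2 and 0 against 159, 156 and 204 on plates 1, 2 and 3). Both were higher in neuron-like cells on each plate. *Unc5c* was at 11.7 TPM in progenitor-like and 59.4 in neuron-like cells, and *Dcc* 11.7 TPM in progenitor-like and 46.5 in neuron-like cells. *Unc5d* had 0 transcripts in progenitor-like and 19 in neuron-like cells. *Efnb3* was at 52.6 TPM in progenitor-like and 162 in neuron-like cells (40, 60.8 and 76.8 against 199, 137 and 102 on plates 1, 2 and 3), and *Epha5* at 129 and 300.2. The opposite side held *Efnb1*, *Slit2* and *Ephb3*. *Efnb1* was at 125.7 TPM in progenitor-like and 32.1 in neuron-like cells (154, 130.3 and 19.2 against 18.1, 45.5 and 25.5 on plates 1, 2 and 3). *Slit2* was at 96.5 TPM in progenitor-like and 33.7 in neuron-like cells (154, 43.4 and 19.2 against 57.9, 9.76 and 51.0 on plates 1, 2 and 3), and *Ephb3* at 38 and 16. For *Efnb1* and *Slit2* the order was the opposite on plate 3, which had 6 and 8 cells. *Epha4* (322 and 267), *Epha3* (84.8 and 104) and *Draxin* (84.8 and 81.8) were close in both.

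**Figure D5:**
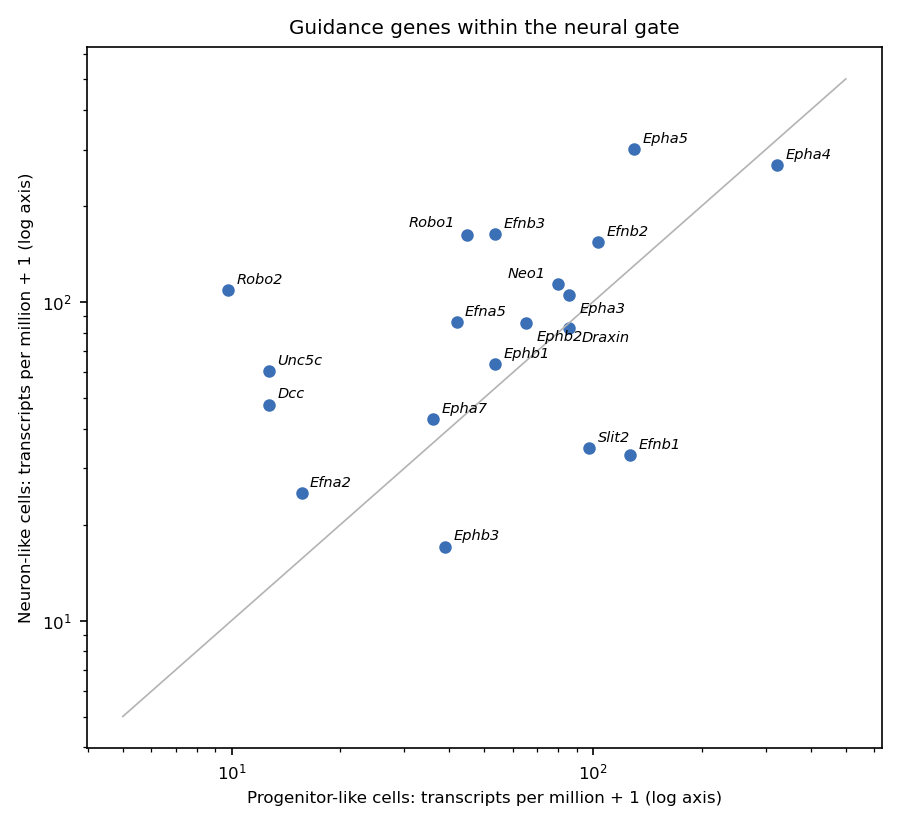
Level of the guidance genes with at least 20 transcripts in the neural gate, in progenitor-like cells (horizontal) and neuron-like cells (vertical), as TPM + 1 on log axes; the line marks equal levels. *Robo2*, *Unc5c*, *Dcc* and *Robo1* lie furthest above the line and *Efnb1*, *Slit2* and *Ephb3* below it.

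In the endothelial gate, the arterial ligand *Efnb2* and the venous receptor *Ephb4* were found together in 28 of 225 cells, *Efnb2* alone in 49, *Ephb4* alone in 35 and neither in 113. Summed levels of 6 arterial markers (*Gja4*, *Gja5*, *Hey1*, *Sox17*, *Bmx*, *Dll4*) and of 3 venous markers (*Nr2f2*, *Aplnr*, *Nrp2*) were 627 and 369.8 TPM in cells with *Efnb2* alone, 385 and 531 with *Ephb4* alone, 717 and 437 with both and 329.7 and 440.2 with neither. Median transcripts per cell were 7052, 8034, 9084 and 5255 in the same order, so cells with both were also the most deeply read, and absence of a transcript is not absence of expression at this depth.

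Ligand and receptor were then read side by side. A gene was counted as present where all 3 libraries of a population reached 1 RPKM, which gave 34 guidance genes in neural cells (13 ligands, 21 receptors), against 13 for mural cells (6 and 7), 10 for endothelial cells (4 and 6) and 4 for microglia (2 and 2). Of the 19737 genes tested in bulk with an exon length, 62.9% were present in neural cells by the same rule, 53.3% in mural and 50.8% in endothelial cells, and 53.0% in microglia. The 77 pairs of ligand and receptor took every ephrin-A with every EphA gene and every ephrin-B with every EphB gene. Added to these were *Efnb2* and *Efnb3* with *Epha4*, *Efna5* with *Ephb2*, and pairs of the Slit, netrin and *Draxin* ligands. Whether each pair binds was not tested. Of the 77, 60 had ligand and receptor both present in neural cells. A neural ligand met a receptor present in mural cells for 24 pairs, in endothelial cells for 16 and in microglia for 8. In the other direction, a mural ligand met a neural receptor for 39 pairs, an endothelial ligand for 26 and a microglial ligand for 14. These counts depended on the minimum level. At 10 RPKM, 21 pairs were left within neural cells, a neural ligand met a mural receptor for 1, an endothelial one for 4 and a microglial one for 0, and a neural receptor met a mural ligand for 0, an endothelial one for 3 and a microglial one for 0. At 0.5 RPKM the last of these counts was 25. Endothelial ligand and endothelial receptor were both present at 1 RPKM for 8 pairs (0 at 10 RPKM), among them *Efna1* with *Epha2* and *Efnb2* with *Ephb4*; *Robo4* and *Unc5b*, receptors that bind each other and are not counted among these pairs, were both present there too, and *Unc5b* also in mural cells without *Robo4*. No Slit gene reached 1 RPKM in all libraries of a population other than the neural, and of the netrins *Ntn1* did so in mural cells. Microglia were limited to *Efna2* and *Efna4* among ligands and *Epha1* and *Epha2* among receptors, with none of the Slit, Robo, netrin, DCC or UNC5 genes. These 4 genes were low in the microglia gate of the single cells. *Efna2* was lowest there (5.11 TPM), and *Epha2* was at 4.38 TPM against 81.6 in the endothelial gate. *Efna4* and *Epha1* had too few transcripts to be tested. Many of the pairs repeat the same few genes and are not independent, and these counts say nothing of protein or contact.

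Further genes of the same pathways, 34 other ligands, co-receptors and cytoplasmic effectors, were counted for comparison, of which 32 could be tested in bulk. Neural cells led 15 of them (background 17.0%) and endothelial cells 2, *Adam10*, the protease that sheds ephrins, and *Srgap1* (background 4.13%). Mural cells led 1, *Ptk2* (background 4.18%), and microglia 1, *Srgap2* (background 8.21%), and 13 had no leading population (background 66.5%). In the single cells 27 were tested, with 6 led by the neural gate (background 10.5%), 3 by the endothelial (background 5.10%), 2 by the mural (background 4.09%) and 2 by the microglia gate (background 11.4%). The other 14 had no leading gate (background 68.9%).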

How the data were processed

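Bulk RNA-seq and mCEL-Seq2 tables were analysed as deposited; the 38 members and the marker and partner lists were chosen with earlier results of these data known. The submitters' processing notes name the build mm10 and the tools BWA (0.6.2-r126), STAR, featureCounts and DESeq2 without saying which file each made. The bulk signal values are gene read counts that the authors divided by 1 size factor per library before they were deposited; per library, 100% of 123944 low values were whole multiples of 1 step within 0.01 reads, which returned the reads. RPKM were computed here from GENCODE vM21 exon lengths, the union of all annotated exons of a gene. Levels per exon length and presence at 1 RPKM depend on that annotation. The single-cell values are transcript counts that the authors corrected for repeated identifiers before they were deposited; wells of 4 gates with more than 1500 transcripts were summed per plate and gate. 62 wells of other gates and all knockout cells were left out, and no doublet caller was run on the sorted wells.
Bulk levels were tested with limma (3.58.1) on log2(normalized count + 1) over genes with a mean of at least 10, and summed transcripts with the quasi-likelihood test of edgeR (4.0.16, R 4.3.3), both two-sided over 6 pairwise contrasts with Benjamini-Hochberg adjustment over all genes tested. Every member was named with its bulk values, and single-cell levels were given for part of the members. Same-numbered libraries come from 1 brain according to the study, and their deviations from the population means correlated at -0.054 to 0.0801. Alternatives were the replicate block, another pseudocount, no minimum level, quantile normalization, edgeR and DESeq2 (1.42.0) on the recovered reads, each library left out, and for single cells DESeq2, 3000 transcripts as the minimum, no filter and each plate left out. The tests were checked on simulated data. Upstream sequences were read from a RefSeq table of GRCm38.p6, which matched 33 of the 38 genes; the other 5 were *Ntn1*, *Unc5d*, *Efnb3*, *Slit1* and *Dcc*.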

Additional observations from a re-analysis of the deposited data

Results flagged for a closer look

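*Ntn1*, *Unc5b* and *Efna2* had opposite orders in the bulk libraries and in the single cells, with every bulk library on one side and every plate on the other. The difference between the data sets was not tested in any of them, since the kits, the sort gates and the depth differ as well. *Ntn1*, the netrin ligand, was higher in neural than in mural cells by 2.10 on the log2 scale in bulk and stood at -1.54 in the single cells. *Unc5b*, a netrin receptor, was higher in endothelial than in mural cells by 0.72 in bulk and stood at -0.63 in the single cells. Both genes were placed higher in mural cells by the single cells. *Efna2*, an ephrin-A ligand, was higher in microglia than in endothelial cells by 2.30 in bulk, over 3 libraries that ranged from 187 to 558 normalized counts in microglia, and stood at -1.88 in the single cells, where the microglia gate held 7 of its transcripts.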

How the results depend on the processing

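Under every bulk alternative neural cells led 20 to 28 genes. With brain as a replicate block the count was 22, the losses being *Epha3*, *Ephb3* and *Slit3*, and no other bulk call over the 4 populations changed under the pairing; among the 3 populations of the same kits *Neo1* was lost (0.061). Genes with no leading population numbered 14 with edgeR on the recovered reads, 5 where the rule was 10-fold above the mean of the others' log2 levels, and 8 to 14 with 1 library left out, most without neural library N-346. Microglia led 1 gene (*Epha1*) with DESeq2 on the recovered reads, 1 by the 10-fold rule, and 0 to 1 with 1 library left out. In the ranking among the 3 populations of the same kits, mural cells led 4, endothelial cells 7 and no population 27. *Neo1* and *Efnb2* were lost under several settings, and *Robo1* was gained with edgeR and DESeq2 and *Unc5b* with DESeq2. Some settings also gave *Ephb1* and *Efnb1* to mural cells, *Epha1*, *Ephb3* and *Slit1* to microglia and *Efna4* and *Slit3* to endothelial cells. Left-out libraries moved the difference of *Efna4* over -0.30 to 0.95 (to -0.17 without Ec-343) and that of *Efna5* over -0.068 to 0.70 (lowest without Mu-340); the causes were not tested.
In the single cells DESeq2 gave 8 neural, 0 mural, 2 endothelial genes and 14 of 24 with no leader, no filter gave 17 of 37 with no leader (8 of the same 24), and plate as a replicate block gave 2 mural genes. Leaving out a plate, which left 17 members tested without plate 1 or 2 and 27 without plate 3, gave 6 to 14 neural, 0 to 2 mural and 2 to 4 endothelial genes and 7 to 9 with no leader, and moved *Efnb2* over -0.053 to 0.71. At 10 RPKM, neural cells held 18 genes, mural cells 1, endothelial cells 4 and microglia 0. Cells thinned to 1500 transcripts left 8, 1, 3 and 0 genes found in at least 10% of neural, mural, endothelial and microglia cells, against 19, 11, 11 and 1 before. All counts of this section under other settings are given without the share of all genes. They show how the counts move and not whether guidance genes differ from other genes. Depth limits the single-cell shares, kit and population cannot be told apart for neural bulk libraries, and 3 libraries a group limit every interval.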
